A study of Mus musculus with 8 samples.

Results

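Nppa and Ankrd1 are stress-responsive genes of heart muscle, and their peaks of N6-methyladenosine (m6A, a methyl mark on adenosines of RNA) were followed through the authors' deposited peak tables. MeRIP-seq pulls down fragmented RNA with an antibody against m6A and sequences it beside RNA that skipped the pulldown (the input). All 8 libraries came from left ventricle of wild-type C57BL/6 mice, labelled as 1 week after myocardial infarction (MI), with 200 µg of RNA used per group. The 4 groups, each with 1 input and 1 MeRIP library, were sham-operated hearts, hearts after MI, MI hearts labelled aavgnp and MI hearts labelled aavFto. The labels expand neither vector name, and they give no dose, no promoter for the vector and no number of animals behind a library. The aavFto hearts are taken to carry Fto, whose protein removes m6A from RNA, and aavgnp to be the vector they were set against. Both of those groups carry the infarct.

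Both genes were taken up with earlier results of these tables known, so the counts below describe them and are not independent evidence. Within the genes, peaks were chosen by ID and place. They were all rows with the Entrez ID of Nppa (230899) or Ankrd1 (107765), together with rows that had no ID and lay over the Nppa locus on chromosome 4. This gave 15 of the 581 rows of both tables. Rows on opposite strands at 1 position were counted as 1 peak, which left 12 of 575. The table of MI against sham held 4 peaks of Nppa and 3 of Ankrd1, and that of aavFto against aavgnp held 3 and 2. Each group had 1 library of each kind, so no value below could be checked against replicates. The authors' p-values and false discovery rates (FDR) set libraries against each other, not conditions. The tables give no level for any library, only a fold enrichment over input for each peak and a log2 change between groups. The sign is not stated in the headers. From the order of names, a positive change was taken as higher in MI, or in aavFto, and every direction given here rests on that. Input levels were not analysed here, so a change in methylation, a change in transcript level and a change in the cells sampled cannot be told apart.

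Nppa encodes the precursor of atrial natriuretic peptide, a hormone that lowers blood volume and pressure through a receptor with guanylyl cyclase activity. In the adult its transcript is made mainly in the atria, while the fetal ventricle also makes it and the stressed adult ventricle makes it again. Ankrd1 encodes an ankyrin repeat protein that binds the spring region of titin in the sarcomere and is also found in the nucleus, and it is known as a gene induced by stretch and overload. On GRCm38.p6, the assembly of mm10, RefSeq places Nppa on chromosome 4 from 148000722 to 148002074 (plus strand) and Ankrd1 on chromosome 19 from 36111965 to 36119844 (minus strand).

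The stretch before each gene's start is shown for reference. Each line gives the 250 bases before the start, 5′ to 3′ on the strand of the gene, from RefSeq on GRCm38.p6, at chr4:148000472-148000721 (plus strand) for Nppa and chr19:36119845-36120094 (minus strand) for Ankrd1. Capitals mark matches on either strand to CATTCC (the M-CAT element bound by TEAD factors), AAGTG (the core bound by NKX2-5) and GATA (the core bound by GATA factors).
Nppa: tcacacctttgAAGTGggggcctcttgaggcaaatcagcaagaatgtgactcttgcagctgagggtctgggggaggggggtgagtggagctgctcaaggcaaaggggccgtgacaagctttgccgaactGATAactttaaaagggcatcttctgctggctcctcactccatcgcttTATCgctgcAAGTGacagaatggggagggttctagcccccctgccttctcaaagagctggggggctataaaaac
Ankrd1: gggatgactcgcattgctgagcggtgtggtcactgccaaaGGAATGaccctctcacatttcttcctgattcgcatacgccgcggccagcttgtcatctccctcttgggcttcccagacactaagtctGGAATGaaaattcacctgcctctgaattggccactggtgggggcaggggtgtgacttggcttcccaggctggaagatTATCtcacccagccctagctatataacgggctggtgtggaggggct
Nppa held AAGTG at 2 positions, GATA at 2 and CATTCC at 0. Ankrd1 held CATTCC at 2 positions, both on the opposite strand, GATA at 1 and AAGTG at 0. Among 32851 RefSeq windows of the same length, 12.6% held CATTCC, 40.7% AAGTG and 53.6% GATA. A match to the consensus of the CArG box of serum response factor was in neither stretch and in 1.47% of all. Elements that differ from the consensus would not be counted, so the absence of such an element is not shown. No 2 of these matches overlapped. In the first 50 transcribed bases, the m6A core GGAC, read on the strand of the gene, stood once in Nppa, at base 31, and 0 times in Ankrd1, against 18.9% of all windows. These are matches of letters only. No binding was measured in this series.

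The first comparison set infarcted against sham-operated ventricle. Nppa had some of the largest gains in the table and the peak with its smallest enrichment p, although that peak ranked 55 of 116 by fold enrichment. The log2 changes of Ankrd1 were smaller in value, and they passed the authors' FDR in the first part of the gene and near its end. All 7 peaks were higher after MI, as were 84.1% of the 113 listed peaks, so the direction alone does not set them apart. Of the 7, 5 passed an FDR of 0.05, 3 of 4 in Nppa and 2 of 3 in Ankrd1. The count was 3 with overlapping rows merged into loci, and also 3 at an FDR of 0.01. The shares that follow are for peaks not merged into loci, at an FDR of 0.05. The counts of 3 therefore have no like share beside them. Over the whole table, 11.5% of 113 peaks were higher past the FDR, and 7.55% of the 106 peaks outside both genes. The median log2 change was 5.29 over the Nppa peaks and 2.40 over the Ankrd1 peaks, against 1.91 over all listed peaks. The smallest absolute change listed in this table was 1.01, so any peak of these genes with a smaller change would not be seen here.

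**Figure D1:**
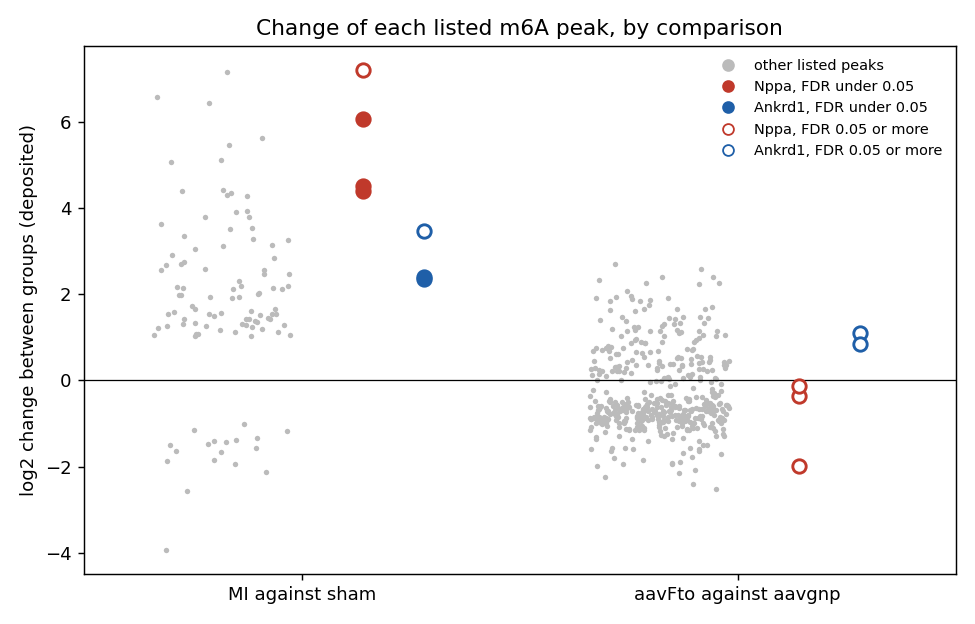
The vertical axis gives the deposited log2 change of each listed peak, with opposite-strand rows at 1 position drawn once, for both comparisons; grey points are peaks of other genes, red points Nppa, blue points Ankrd1, and filled points have a differential FDR under 0.05. The 4 Nppa peaks lie between 4.39 and 7.21 after MI and between -1.99 and -0.135 (3 peaks) with aavFto, while the Ankrd1 peaks lie above 0 in both.

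The Nppa peak that carried the gene ID spanned chromosome 4 from 148000752 to 148002074, in 3 blocks of 203, 327 and 300 nt. It began 30 nt after the start of the gene and ran to its end, so it spanned nearly the whole gene and does not mark a single m6A site. Its enrichment p was the smallest of all 116 rows, with a log10 p of -14.0 and a fold enrichment of 67.7 per the authors' deposited table. The same row rose by 4.52 on the log2 scale, a ratio of 22.9, with a differential FDR of 9.12e-06 per the authors' deposited table. By differential p it ranked 2 of 116.

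The other 3 Nppa peaks had no gene ID and lay inside this one or across the edges of its blocks. Towards the start of the gene, a peak of 149 nt at 148000791 to 148000939 rose by 6.06, a ratio of 66.7 (FDR 0.021), per the authors' deposited table. It fell wholly within the first block. A middle peak of 385 nt, at 148001027 to 148001411, rose by 4.39 (FDR 0.0023) per the authors' deposited table. It held all 327 nt of the second block and 58 nt of the gaps beside it, and its enrichment p ranked 2 of 116. The shortest peak, 119 nt at 148001766 to 148001884, carried the table's largest change, 7.21, and did not pass, with a p of 0.015 and an FDR of 0.16 per the authors' deposited table. Of its bases, 110 lay in the third block. Each of these peaks shares bases with the longer one and can share its reads, so they are views of 1 locus and not 4 separate results.

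For both opposite-strand pairs, the deposited change was the same on either strand, 6.06 and 6.06, and 4.39 and 4.39, per the authors' deposited table. The minus-strand row of the second pair, at 148001026 to 148001656, had a further block of 14 nt. No source used here says whether the counting used strand, so reads from Nppa and from any transcript opposite to it could not be told apart. The RefSeq gene table used here held no other gene over this locus. However, the minus-strand rows of 2 blocks had a gap of 248 nt in both comparisons, unlike the gaps of 103 and 390 nt in the row with the gene ID. Which transcript those rows follow is not given.

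**Figure D2:**
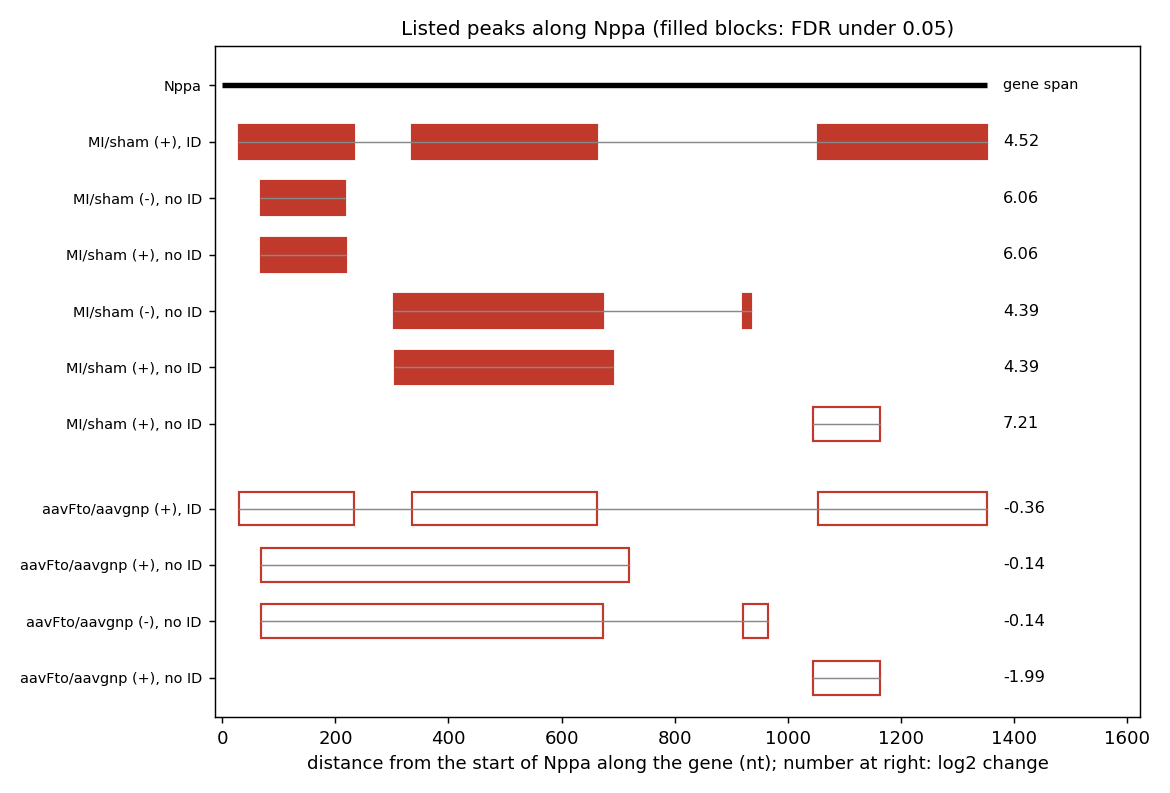
The horizontal axis gives the distance in nt from the start of Nppa along the gene; each row is a listed peak with its strand, whether it carried the gene ID, its blocks as boxes (filled where the differential FDR was under 0.05) and its log2 change at the right. The peak of 3 blocks and the peak of 119 nt have the same blocks in both tables, with 4.52 and 7.21 for MI against sham and -0.362 (drawn as -0.36) and -1.99 for aavFto against aavgnp.

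Ankrd1 had 3 peaks in the table of MI against sham, all with the gene ID and none sharing bases. The longest, 449 nt in 4 blocks from 36116817 to 36119368, lay from 476 to 3027 nt after the start of the gene. It rose by 2.40, a ratio of 5.28 (FDR 4.79e-04), per the authors' deposited table, and ranked 5 of 116 by differential p. A peak of 210 nt near the other end of the gene, at 36112085 to 36112294, stopped 120 nt before the gene's end. It rose by 2.36, a ratio of 5.13 (FDR 0.032), per the authors' deposited table. The third, 120 nt at 36112623 to 36112742, stood at 3.47 with a p of 0.030 and an FDR of 0.23 per the authors' deposited table, so it did not pass. Its enrichment FDR of 0.019 was the weakest of the 7 peaks.

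The 2 Ankrd1 changes that passed lay close together, at 2.36 and 2.40 per the authors' deposited table. They ranked 46 and 45 of 116 by absolute change, and 15 and 5 by differential p. Fold enrichment over input was lower for Ankrd1, at 21.8 to 27.9, than the median of 66.3 over all peaks. For Nppa it was 28.0 to 71.3. In number of peaks past the FDR, Nppa with 3 and Ankrd1 with 2 came after Myh7, a fetal myosin heavy chain, with 5. Each of the other 5 genes with a call had 1. The called Nppa peaks share bases and are 1 locus, so its place in this order rests on counting overlapping peaks apart. With overlapping rows merged into loci, Nppa and Ankrd1 together had 3 calls.

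**Figure D3:**
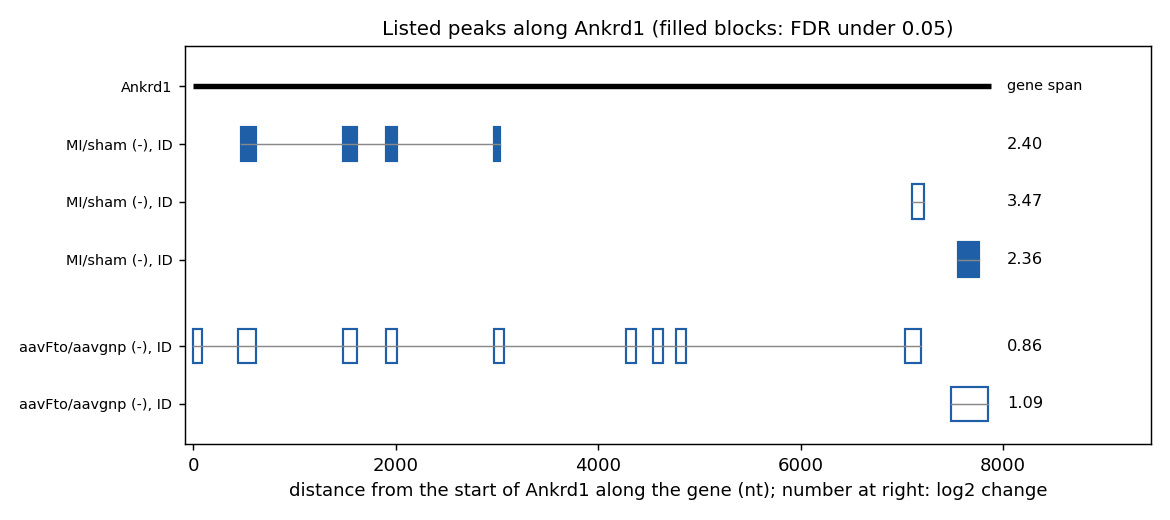
The horizontal axis gives the distance in nt from the start of Ankrd1 along the gene; each row is a listed peak of the minus strand with its blocks as boxes (filled where the differential FDR was under 0.05) and its log2 change at the right. The MI peaks at 2.40 and 2.36 lie towards opposite ends of the gene, inside the longer peaks listed for aavFto against aavgnp at 0.856 (drawn as 0.86) and 1.09.

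The second comparison asked how m6A in infarcted hearts differed between aavFto and aavgnp. No peak of either gene passed the FDR, and none had an unadjusted p under 0.05, against 4.33% of all listed peaks, so this count does not set the genes apart. The 3 Nppa peaks had values below 0, as did 67.1% of all 462 listed peaks, and 2 of the 3 lay above the table's median of -0.61. The 2 Ankrd1 peaks had values above 0, as did 32.9% of all. Over the whole table, 1.73% of 462 peaks passed the FDR, all of them higher. All 6 rows of the 2 genes carried an FDR of 0.71, which 443 of the table's 465 rows shared. An FDR of this size does not show that the groups were alike at these genes.

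In Nppa the 3-block peak had the same blocks as in the first table. Its change was -0.362, a ratio of 0.778, with a p of 0.25 per the authors' deposited table, and its log10 enrichment p was -21.4. A continuous peak of 651 nt at 148000791 to 148001441 stood at -0.135 with a p of 0.49 per the authors' deposited table. It covered the places of both the 149 nt and the 385 nt peaks of the MI table. Its partner on the minus strand, at 148000791 to 148001686, had the same change. The 119 nt peak, again with the same blocks, stood at -1.99, a ratio of 0.252, with a p of 0.22 per the authors' deposited table. Its change ranked 6 from the lowest of the 465 rows, and its enrichment was weak, with a fold of 19.3 and a log10 p of -4.33 against -21.4 and -22.6 for the longer Nppa peaks.

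In Ankrd1 the peaks were longer than in the first table. A peak of 9 blocks and 1077 nt ran from 36112653 to 36119844, the first base of the gene. Its change was 0.856, a ratio of 1.81, with a p of 0.060 per the authors' deposited table. The other, 360 nt at 36111995 to 36112354, ended 30 nt before the end of the gene and stood at 1.09, a ratio of 2.13, with a p of 0.081 per the authors' deposited table. By differential p they ranked 23 and 29 of 465, and their fold enrichment was 97.8 and 73.7 against a median of 54.2. All bases of the 449 nt and 210 nt peaks of the MI table, and 90 of the 120 nt of the third, lay inside them.

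The strong peaks of the aavFto table mostly had values above 0. At a log10 enrichment p of -17.5 or lower, the level of the weaker Ankrd1 peak, stood 22 peaks, 18 with a change above 0 and 4 below. The 2 longer Nppa peaks were among the 4 below 0, and both Ankrd1 peaks among the 18. Outside these genes the split was 16 and 2. The median change over the 22 was 0.72, against -0.61 over all listed peaks. This grouping was chosen after the values were seen and was not tested.

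**Figure D4:**
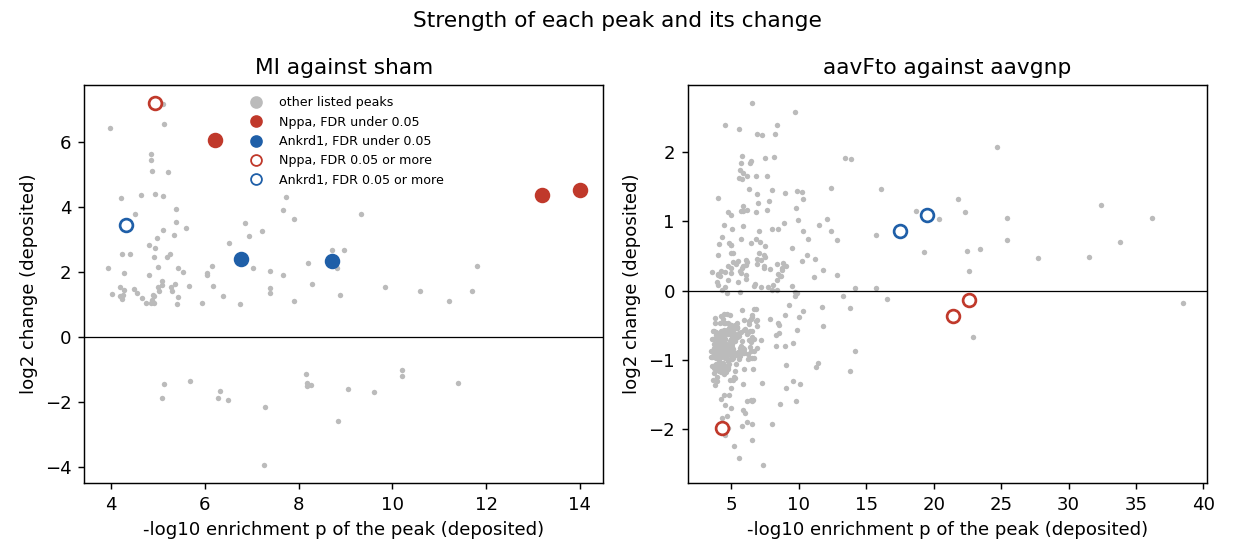
The horizontal axis gives the deposited enrichment p of each peak as -log10, the vertical axis its deposited log2 change, with 1 panel per comparison; grey points are other genes, red Nppa, blue Ankrd1, and filled points have a differential FDR under 0.05. Nppa holds the 2 peaks with the smallest enrichment p after MI (at 4.52 and 4.39), while with aavFto its 2 strong peaks lie just below 0, at -0.362 and -0.135.

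All 7 peaks of the MI table shared at least 1 nt with a peak of the same gene and strand in the aavFto table, as did 93.8% of all MI peaks with any aavFto peak on their strand, so this is general to the table. In return, all 5 peaks of the aavFto table overlapped an MI peak, against 20.6% of all 462. Both genes were taken up with earlier results of these tables known, so this contrast does not set them apart. The MI table listed only 113 peaks, which limits how many aavFto peaks can have a partner. The 5 peaks were also long, with a median of 651 nt against 181 nt over all listed aavFto peaks. Of the whole series, 6 peaks had the same blocks in both tables, and 2 of these were at Nppa. The bases under any listed peak of Nppa came to 897 in the MI table and 999 in the aavFto table, of a gene of 1353 nt. In Ankrd1 they came to 779 and 1437 of a gene of 7880 nt. Peaks are listed per comparison, so these are not lengths for a single group. The smallest absolute change listed was 1.01 in the MI table and 0.0041 in the aavFto table, so the lengths rest on unlike sets of peaks. The tables come from different libraries and were made separately, so these lengths and values stand side by side and no difference between the comparisons was tested.

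Other genes of the natriuretic peptide system had few listed peaks. Of 13 genes, which included the receptors Npr1, Npr2 and Npr3 and the activating protease Corin, the MI table listed only Nppa. The aavFto table also listed Nppb, which encodes brain natriuretic peptide and neighbours Nppa on chromosome 4. Its peak of 174 nt stood at 0.423 with a p of 0.65 per the authors' deposited table. Of 10 cardiac transcription factors that include Gata4, Nkx2-5, Tbx5, Srf and Tead1, neither table listed any. A gene with no listed peak may still be transcribed or methylated.

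Of 17 genes of titin-associated stress sensing, the MI table listed Ankrd1 and Csrp3, and only Ankrd1 passed the FDR. Csrp3, a muscle LIM protein of the Z-disc, stood at 1.25 (FDR 0.74) per the authors' deposited table. The aavFto table listed 10, of which 5 had a largest change above 0 and 5 below, and 1 passed. Of their 18 peaks, 7 were above 0 and 1 passed, against 32.9% and 1.73% of all listed peaks. The gene that passed was Tcap, the titin cap protein, which rose by 2.07 (FDR 0.031) per the authors' deposited table. Ankrd23, a family member of Ankrd1 that binds the same part of titin, stood at -0.935 (p of 0.57) and Des, the intermediate filament desmin, at 0.554 (p of 0.076) per the authors' deposited table.

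Of 15 genes of the fetal and hypertrophic programme, 4 were listed after MI. All 14 of their peaks were above 0, as were 84.1% of all listed peaks. Peaks of Nppa, Ankrd1 and Myh7 passed the FDR, 10 in all, where 11.5% of all listed peaks were higher past it. The 10 include 3 Nppa peaks that share bases and are 1 locus. The fourth gene, Xirp2, an actin-binding protein of the intercalated disc, stood at 1.93 (FDR 0.70) per the authors' deposited table. With aavFto 8 were listed, with 8 peaks above 0 and 10 below, and none passed. Over all listed peaks of that comparison, 32.9% were above 0 and 1.73% passed. Since Nppa, Ankrd1 and Myh7 were known to change in these tables when the list was drawn up, its count is not independent evidence of a direction.

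Markers of cell types were listed as follows. Of 6 markers of ventricular muscle, the aavFto table listed all 6, each with its largest change above 0, and 3 passed. All 10 of their peaks were above 0, as were 32.9% of all listed peaks. Of the 10, 4 passed, against 1.73% of all. The MI table listed only Myh6, the adult myosin heavy chain, which fell by 2.56 (FDR 0.027) per the authors' deposited table. Of 6 atrial markers, among them Myl7, Myl4, Sln and Tbx5 (which is also in the list of transcription factors), neither table listed any. Of 7 fibroblast markers, 4 were listed after MI, with largest changes from 4.31 to 7.17, and 2 of them passed, Col1a1 and Col3a1. All 5 of their peaks were above 0, as were 84.1% of all listed peaks. Of the 5, 2 passed, where 11.5% of all were higher past the FDR. With aavFto the same list had 4 genes, with largest changes from -1.10 to 1.65, of which 3 were below 0, and none passed. Of their 14 peaks 11 were below 0, as were 67.1% of all listed peaks. The 1 listed macrophage marker, Apoe, stood at 3.51 and 1.14, and the 2 listed endothelial markers had largest changes of 1.65 to 2.56 and of -0.691 to -0.599, per the authors' deposited table for each comparison, with none past the FDR. The part of the cell mixture in the Nppa and Ankrd1 values was not tested.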

How the data were processed

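STAR 2.5.3a and the build mm10 are named in the submitters' processing notes. No source used here names the peak caller, its thresholds or the scaling of the libraries. The deposited score was taken to be the enrichment p-value of a peak, which its header does not state. The authors gave enrichment and differential p and FDR as log10 values, the fold enrichment over input as a linear ratio, and the change between groups as log2. The aavFto table calls its second group null; aavgnp was put in its place, since the labels name this table for both groups. Depth per library is unknown, so no interval that needs it is given.

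Here the log10 values were turned into p and FDR, and log2 changes into ratios. Opposite-strand rows that shared at least 90% of the bases of each were counted as 1 peak, with the plus-strand row kept. Coordinates are 1-based on mm10. Symbols, gene spans and promoter windows came from RefSeq tables of GRCm38.p6, in which both genes matched. Exons and peak sequences were not used here, so peaks were not assigned to exons or UTRs. The text names Nppa and Ankrd1 with all their peaks, up to 6 genes of the lists, and the 5 genes nearest to each in pattern. Myh7, Myh6 and the other markers given with values were chosen after their values were seen. The members, lists and rule were chosen with earlier results of these data known. All p and FDR values are the authors', and none was computed here. The rule and the merging of strands were tested on simulated rows, with Python 3.11.15 and pandas 2.3.3.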

Additional observations from a re-analysis of the deposited data

How the results depend on the processing

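With 1 library per group and kind, leaving out a replicate was not possible, and no value has an error across animals. No paired analysis was possible because each group has 1 library of each kind and no test was run across samples. Of 41 alternative values, 34 stayed close to those reported and 7 moved. Close meant within 1.5 times for counts, and within 1 SD over the peaks of the gene for medians. No median could change sign, since all peaks of a gene lay on the same side of 0 in each comparison. Several alternatives were also bound to agree, because they draw on the same few peaks. For Nppa with aavFto the SD was 1.01 against a median of -0.362, so this limit was loose there. The count of 5 peaks past the FDR after MI became 3 at an FDR of 0.01, 3 with overlapping rows merged into loci and 3 with only the rows that carry the gene ID. The count of 0 with aavFto stayed 0 under every alternative run. All 6 rows carried an FDR of 0.71, so only the alternative with an unadjusted p under 0.05 could have differed. Taking the peak of largest absolute change in place of the median gave 7.21 for Nppa and 3.47 for Ankrd1 after MI, neither of which passed the FDR, and -1.99 for Nppa with aavFto. The count of 7 MI peaks that overlap an aavFto peak became 4 where at least 50% of each peak had to be shared.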

Other observations

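The genes nearest to Nppa and to Ankrd1 were sought among the 74 genes with a peak in both tables, by the distance between their pairs of largest changes. Only 2 values per gene enter this distance, so it is a description. Nearest to Nppa, at 7.21 and -1.99, were Col3a1, Postn, Sparc, Col1a2 and Bgn, all genes of the extracellular matrix. Their changes were 5.12 to 7.17 after MI and -1.60 to -0.763 with aavFto in the authors' deposited tables, at distances of 1.23 to 2.13. Both values of Nppa come from its 119 nt peak, which had the weakest enrichment p of the gene and passed the FDR in neither table. With each gene's peak of smallest enrichment p in its place, an alternative added after seeing the data, Nppa stood at 4.52 and -0.135, and its nearest genes were Col1a1, Myh7, Col1a2, Myh9 and Sparc, at distances of 0.214 to 1.46. Only Col1a2 and Sparc are in both sets of 5. Nearest to Ankrd1, at 3.47 and 1.09, were Apoe, Itgb5, Myh9, Cst3 and Col1a1. Their changes were 2.68 to 4.31 and 0.642 to 1.65 in the authors' deposited tables, at distances of 0.064 to 1.01. The value of 3.47 is from a peak that did not pass, and with the peaks of smallest enrichment p the nearest were Cst3, App, Fth1, Xirp2 and Atp5b, with Cst3 alone in both sets. Of the first 10 genes, Col3a1 and Col1a1 had this peak past the FDR after MI, and none with aavFto.

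Short peaks carried the larger changes at both genes after MI. The median was 6.06 over the 3 peaks of up to 150 nt and 3.40 over the 4 longer ones. The short peaks were Nppa at 7.21 and 6.06 and Ankrd1 at 3.47. The longer ones were Nppa at 4.52 and 4.39 and Ankrd1 at 2.40 and 2.36. The medians thus mix gene with length, and the short Nppa peaks share bases with the peak of 830 nt. Over all listed peaks of that table the medians of the absolute change were 2.05 and 1.93. The shortest peak of each gene, at 7.21 and 3.47, also had the weakest enrichment p of its gene and did not pass the FDR. Whether low read counts play a part was not tested.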
